A study of Homo sapiens with 12 samples.

Results

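The mitochondrial genome of human cells carries a small set of protein-coding genes, whose symbols start with MT-. They were taken here as every gene symbol in the count files with that prefix, which gave 13 genes of 45320, all on the mitochondrial chromosome and all protein-coding. No mitochondrial rRNA or tRNA was found under that prefix, and those RNAs are not analysed here. All 13 genes passed the filter on low counts, with between 6163 counts in the lowest library for MT-ATP8 and 740985 in the highest for MT-CO1.

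RNA was sequenced from Ishikawa cells, a line derived from human endometrial adenocarcinoma. They carried a hairpin against ARID1A (shARID1A, shortened to shARD in the labels) or a control hairpin (shNC). ARID1A encodes a large subunit of SWI/SNF, a complex that remodels chromatin and binds DNA. Within each arm, cells received the vehicle DMSO, 17-beta-estradiol (E2) at 10 nM, or the same E2 dose plus fulvestrant at 100 nM. Fulvestrant is an estrogen receptor antagonist and degrader, and its dose is typed in the labels with letters in place of zeros. Treatment lasted 8 h, and all cells had grown in phenol red-free medium whose serum was stripped with charcoal and so low in steroid hormones. The 6 groups had 2 libraries each. The labels do not say whether these came from separate cultures, so each p-value reflects differences between libraries that may be technical. They also leave unstated whether an arm is 1 hairpin or 1 clone, so ARID1A loss cannot be told apart from other differences between the shARID1A and shNC cells.

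Libraries held 28810351 to 38657162 counts. ARID1A itself was at 53.8 to 61.7 CPM (read counts scaled to the size of each library) in the 6 shARID1A libraries, against 110 to 123 CPM in the 6 shNC libraries. Of the epithelial markers, KRT8 and KRT18 had 5727 counts or more in every library, whereas EPCAM had 12 to 63, CDH1 0 to 21 and KRT19 0 to 5 counts. Of the endometrial markers, PAX8 had 40 to 95 counts, the estrogen receptor gene ESR1 had 2 to 34 and the progesterone receptor gene PGR had 0. The immune markers PTPRC, CD3E and CD68 had at most 2 counts. The 5 epithelial markers summed to 537 to 574 CPM in shARID1A libraries and 852 to 930 CPM in shNC libraries. The part of these marker levels in the results that follow was not tested.

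Mitochondrial DNA is transcribed from both strands as long polycistronic RNAs, which are cut into single mRNAs, in many places at the tRNAs that lie between them. The products are core subunits of the respiratory chain: 7 belong to complex I (MT-ND1 to MT-ND6 and MT-ND4L), which oxidises NADH, 1 to complex III (MT-CYB, cytochrome b), 3 to complex IV (MT-CO1 to MT-CO3, cytochrome c oxidase) and 2 to complex V (MT-ATP6 and MT-ATP8, ATP synthase). All other subunits of these complexes are encoded in the nucleus, so each complex is built from the products of both genomes. MT-ND6 is the only member encoded on the opposite strand, and its G content was 35.6%, against 6.28% to 16.2% in the others.

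Several members are joined or end in ways that bear on how their reads are counted, and their sequences show this. MT-ATP8 and MT-ATP6 share 46 bases and are carried on a single mRNA, as are MT-ND4L and MT-ND4, which share 7 bases. In the stretches below, taken from the GENCODE transcripts of GRCh38 and read 5′ to 3′, capitals mark the shared bases, which open with the ATG start codon of the downstream gene and close with the stop codon of the upstream gene.

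MT-ATP8 and MT-ATP6: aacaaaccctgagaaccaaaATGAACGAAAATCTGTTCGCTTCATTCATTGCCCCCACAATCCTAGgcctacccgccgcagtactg

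MT-ND4L and MT-ND4: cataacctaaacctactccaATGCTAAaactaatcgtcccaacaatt

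These stretches lie at chrM:8507-8592 and chrM:10740-10786 on the plus strand. The counting command in the file headers carries no option for overlapping features, and by default such a read is assigned to neither gene. The counts of MT-ATP8, with 46 of its 207 bases shared, therefore understate its reads in every library.

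The 3′ ends show a second feature of these mRNAs. In 6 members (MT-ND1, MT-ND2, MT-CO3, MT-ND3, MT-ND4 and MT-CYB) the annotated gene ends in T or TA, and the UAA stop codon is completed only when the poly(A) tail is added. The TruSeq mRNA kit named in the labels selects RNA by its poly(A) tail. Whether the counts of each member came from its own tailed mRNA was not measured. The last 24 bases of 5 members are given here, with the partial or whole stop codon in capitals.

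MT-ND1: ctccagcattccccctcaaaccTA

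MT-ND3: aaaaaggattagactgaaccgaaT

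MT-CYB: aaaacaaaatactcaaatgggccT

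MT-CO1: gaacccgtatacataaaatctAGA

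MT-ND6: attgagattgctcgggggaatAGG

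MT-CO1 and MT-ND6 close with AGA and AGG, which are not stop codons in the nuclear code. The last is read from the minus strand at chrM:14149-14172. MT-ND5 ends at the base next to it, at chrM:14148, on the other strand. Because counting used no strand, reads of MT-ND6 and of RNA from the other strand over the same bases cannot be told apart.

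Mitochondrial mRNA made up a larger share of all counts in shARID1A cells than in shNC cells, under each treatment. The share in the shARID1A libraries was 5.61% and 5.69% under DMSO, 5.56% and 5.65% under E2, and 5.50% and 5.72% under E2 plus fulvestrant. In the shNC libraries it was 4.76% and 5.12% under DMSO, 4.89% and 5.01% under E2, and 4.76% and 4.94% under E2 plus fulvestrant. The lowest shARID1A library was above the highest shNC library. The arms averaged 5.62% ± 0.0815 and 4.91% ± 0.140 (shARID1A and shNC, SD, n = 6 each), a difference of 0.710 percentage points and a ratio of 1.14. By treatment the ratio was 1.14 with DMSO, 1.13 with E2 and 1.16 with E2 plus fulvestrant. Within an arm the 3 treatment means lay close together, at 5.65%, 5.61% and 5.61% in shARID1A and 4.94%, 4.95% and 4.85% in shNC for DMSO, E2 and E2 plus fulvestrant. In bulk RNA, a change in the number of mitochondria or cells and a change in RNA per cell cannot be told apart. The share is a sum over the genes under study, so no p-value is given for it.

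**Figure D1:**
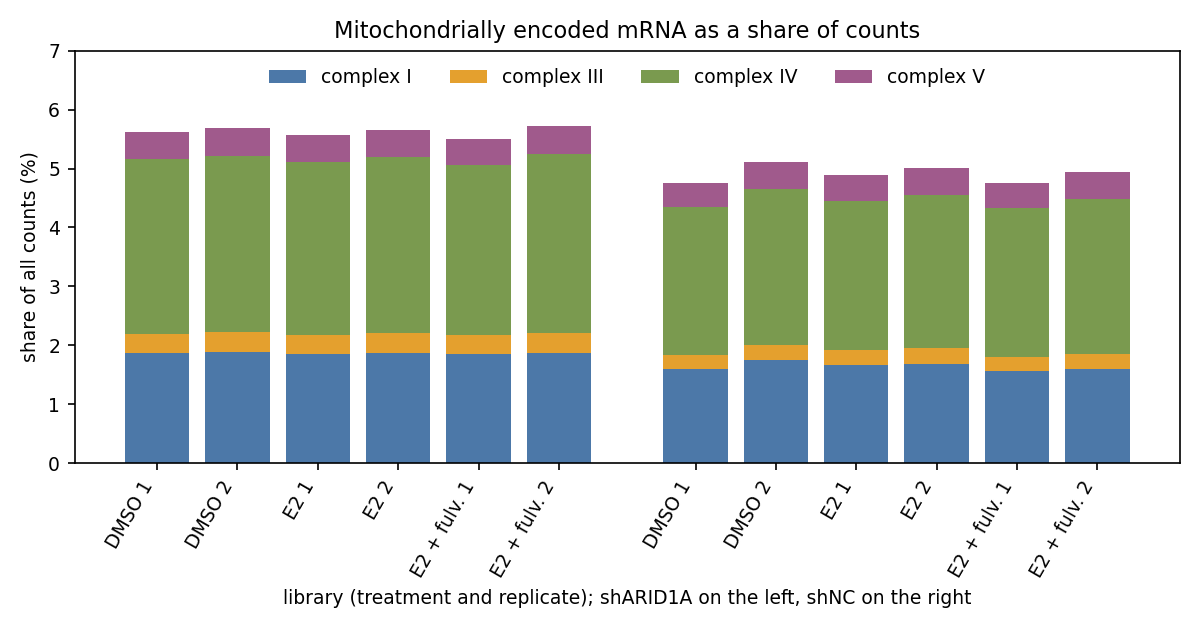
Share of all counts from the 13 mitochondrial genes in each library, in percent, stacked by respiratory complex. The 6 shARID1A libraries on the left reach 5.50% to 5.72%, and the 6 shNC libraries on the right reach 4.76% to 5.12%.

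The 4 complexes did not share equally in this difference. Complex IV mRNA, the largest group, was 2.97% ± 0.0545 of counts in shARID1A and 2.58% ± 0.0597 in shNC (SD, n = 6 each), a ratio of 1.15. Complex I mRNA was 1.87% ± 0.0175 in shARID1A and 1.64% ± 0.0700 in shNC, a ratio of 1.14. Complex III, which is MT-CYB alone, was 0.328% ± 0.00644 in shARID1A and 0.255% ± 0.00897 in shNC, a ratio of 1.28. For these 3 complexes the arms did not overlap. Complex V mRNA was 0.460% ± 0.0118 in shARID1A and 0.442% ± 0.0183 in shNC, a ratio of 1.04, and its arms overlapped.

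Taken as a share of mitochondrial counts alone, which does not depend on the nuclear genes, complex III was 5.83% in shARID1A and 5.19% in shNC, and complex V was 8.18% in shARID1A and 8.995% in shNC, without overlap. Complex I and complex IV held 33.2% and 52.8% in shARID1A, against 33.4% and 52.4% in shNC, with overlap. The complex I share was nearly the same under the 3 treatments in shARID1A, at 33.2%, 33.1% and 33.2%. In shNC it was 33.8% with DMSO, 33.8% with E2 and 32.5% with E2 plus fulvestrant, and the 2 libraries of that last group were the lowest of the 12.

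Levels of single members were compared per length, as CPM per kb of gene. MT-CO1, the catalytic core of cytochrome c oxidase, was the most abundant, at 12579.9 ± 265 CPM per kb in shARID1A and 10058 ± 187 in shNC (SD, n = 6 each), and it ranked 1 among all tested genes in mean CPM. MT-ATP8 had the lowest value, at 1083 ± 60.8 CPM per kb in shARID1A and 1084 ± 52.5 in shNC. Between these lay MT-CO3, MT-CO2, MT-ATP6, MT-ND4, MT-ND4L, MT-ND2, MT-ND1, MT-CYB, MT-ND5, MT-ND6 and MT-ND3, in falling order of the mean over both arms. The MT-ATP8 value is understated, since reads over the bases shared with MT-ATP6 were counted for neither gene. It does not measure a molecule separate from MT-ATP6, which is carried on the same mRNA.

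Most neighbours in this order were separated in both arms. Exceptions were MT-ND1 and MT-CYB, whose libraries overlapped in each arm, and MT-ND6 and MT-ND3, which also overlapped in each arm. MT-CO3 and MT-CO2 overlapped in shNC, where MT-CO2 averaged 6593 CPM per kb and MT-CO3 6504, but not in shARID1A, where MT-CO3 at 7874 stood above MT-CO2 at 7157. In shNC alone, MT-ND4L also overlapped with MT-ND2, and MT-ND3 with MT-ATP8. MT-ND4 and MT-ND4L are read from a single mRNA and still differed, at 4893 and 3903 CPM per kb in shARID1A and 4049 and 3228 in shNC. Reads of the shared mRNA are split between the 2 genes by position, so such gaps do not measure separate molecules.

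**Figure D2:**
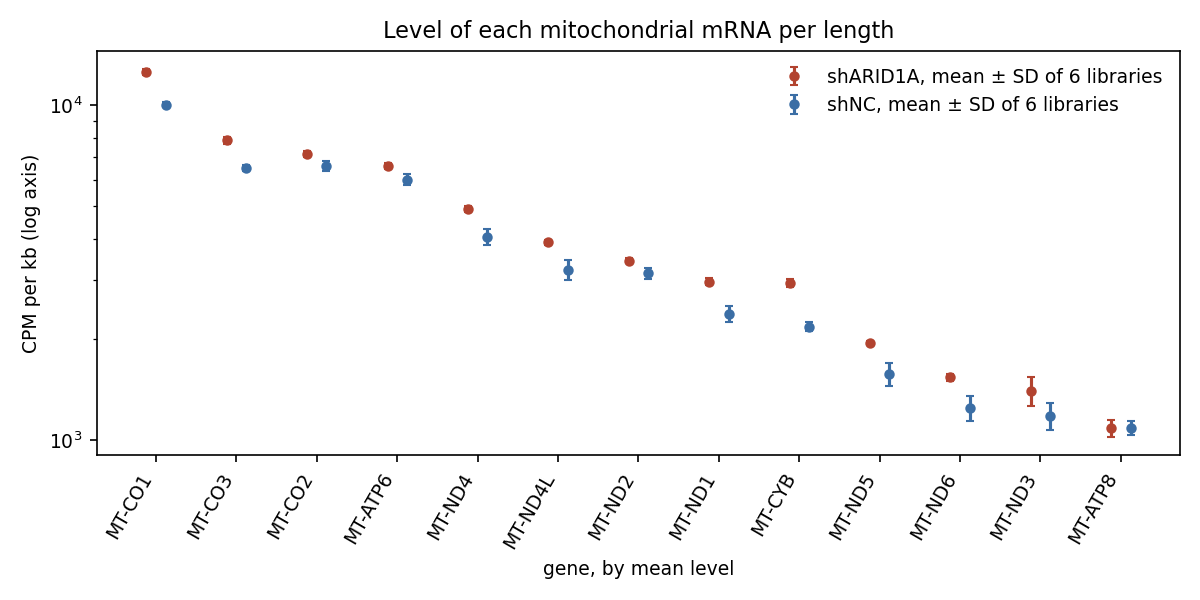
Level of each mitochondrial mRNA in CPM per kb of gene on a log axis, as mean ± SD of 6 libraries, with shARID1A in red to the left and shNC in blue to the right for each gene. Levels run from 12579.9 (shARID1A) and 10058 (shNC) for MT-CO1 down to 1083 (shARID1A) and 1084 (shNC) for MT-ATP8, where the arms coincide. The MT-ATP8 level is understated, since reads over bases shared with MT-ATP6 were not counted.

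The comparison of shARID1A with shNC, averaged over the 3 treatments, asked how each mRNA differed between the arms. Of the 13 members, 12 were higher in shARID1A and 0 lower at an adjusted p under 0.05 by edgeR's quasi-likelihood test with Benjamini-Hochberg adjustment over 17020 genes. Of all genes tested, 20.3% were called higher and 22.8% lower, 43.1% in all. The median log2 fold change of the members was 0.28, beside -0.02 for all genes. In CPM, all 6 shARID1A libraries were above all 6 shNC libraries for 10 members, and this was so for 11.4% of all genes; the exceptions were MT-CO2, MT-ATP8 and MT-ND3. By treatment, 11 members were called higher with DMSO (9.7% of all genes), 10 with E2 (13.4%) and 11 with E2 plus fulvestrant (11.4%), and 0 were called lower under any of them. The count with DMSO was 7 without replicate 1 of shNC or replicate 2 of shARID1A in that treatment, and the MT-ND6 call with DMSO was lost without any single library of the 4 compared.

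MT-CYB, the cytochrome b subunit that carries electrons through complex III, differed most. Its level was 3295, 3329 and 3550.3 CPM in shARID1A and 2388, 2504 and 2589 CPM in shNC (lowest, median and highest of 6 libraries). The arms were far apart, and the log2 fold change was 0.43 (SE 0.03, adjusted p = 2.5e-15 by edgeR's quasi-likelihood test). It was alike under the 3 treatments, at 0.43 with DMSO, 0.44 with E2 and 0.44 with E2 plus fulvestrant.

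MT-CO1 was at 18854, 19359 and 20031 CPM in shARID1A and 15021, 15559 and 15911 CPM in shNC (lowest, median and highest of 6 libraries), again with a wide gap. Its log2 fold change was 0.32 (SE 0.02, adjusted p = 1.16e-14 by edgeR's quasi-likelihood test), and it too varied little by treatment, from 0.32 to 0.33. MT-CO3, a further core subunit of complex IV, rose by 0.28 (SE 0.02), with the 3 treatments between 0.27 and 0.28. MT-CO2, which takes electrons from cytochrome c, stood apart within complex IV. Its level was 4753, 4892 and 5029.6 CPM in shARID1A and 4337, 4494 and 4786 CPM in shNC (lowest, median and highest of 6 libraries), so the arms overlapped. Its log2 fold change was 0.12 (SE 0.02, adjusted p = 0.000161 by edgeR's quasi-likelihood test).

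Among the complex I genes, 6 had similar pooled changes, and the values by treatment lay further apart in some than in others. MT-ND1, part of the ubiquinone-binding region, rose by 0.32 on the log2 scale (SE 0.02), MT-ND5 by 0.31 (SE 0.02) and MT-ND6 by 0.31 (SE 0.03). With DMSO, E2 and E2 plus fulvestrant, the log2 fold change of shARID1A over shNC was 0.26, 0.30 and 0.40 for MT-ND1, 0.20, 0.32 and 0.42 for MT-ND5, and 0.15, 0.31 and 0.46 for MT-ND6. Because counting used no strand, the MT-ND6 values may include RNA from the other strand, next to the end of MT-ND5. MT-ND4L and MT-ND4, carried on a single mRNA, rose by 0.28 (SE 0.03) and 0.27 (SE 0.03), and MT-ND3 by 0.25 (SE 0.03). MT-ND2, a proton-pumping subunit like MT-ND4 and MT-ND5, rose by 0.13 (SE 0.02, adjusted p = 8.51e-05 by edgeR's quasi-likelihood test). It was at 3487, 3587 and 3643 CPM in shARID1A and 3124, 3286 and 3447 CPM in shNC (lowest, median and highest of 6 libraries), a narrow gap.

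In complex V, MT-ATP6, which forms part of the proton channel of ATP synthase, rose by 0.14 (SE 0.02, adjusted p = 3.18e-05 by edgeR's quasi-likelihood test). MT-ATP8, a small subunit of its membrane part, was at 210.0, 225 and 244 CPM in shARID1A and 206, 227 and 236 CPM in shNC (lowest, median and highest of 6 libraries). The arms lay on top of each other, and the log2 fold change was -0.00 (SE 0.03, adjusted p = 0.977 by edgeR's quasi-likelihood test). MT-ATP8 and MT-ATP6 thus had unlike values although they are read from a single mRNA, and MT-ATP8 is the member with the fewest counts and the shortest length.

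**Figure D3:**
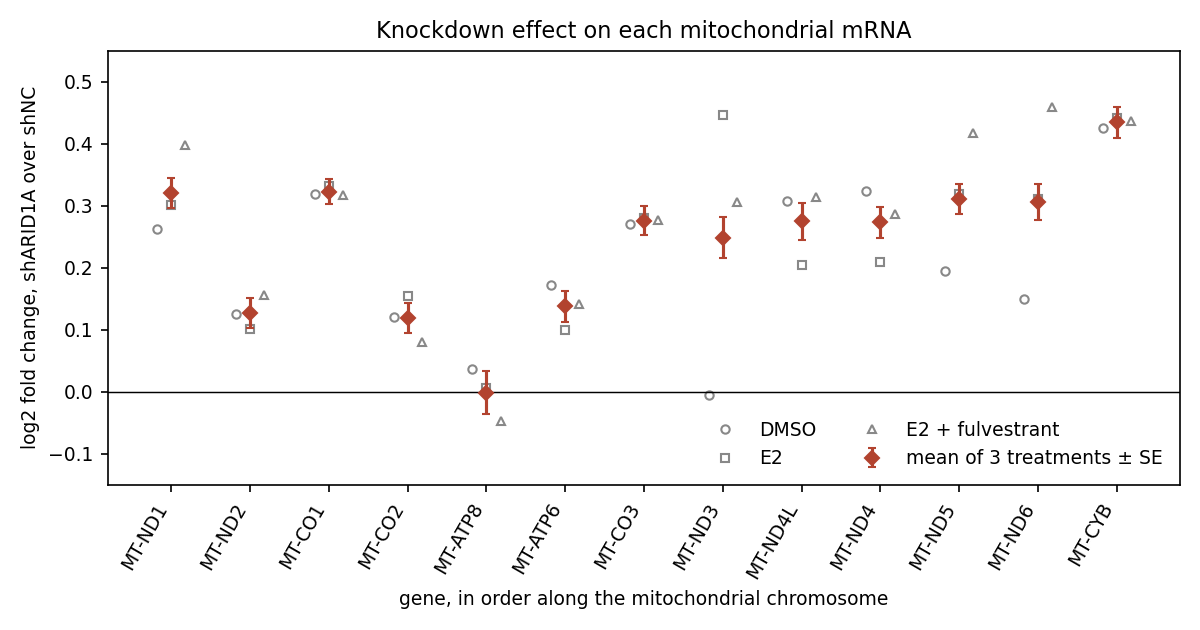
Log2 fold change of shARID1A over shNC for each member in chromosome order, with red diamonds for the mean of the 3 treatments ± SE and open grey symbols for each treatment. MT-CYB is highest at 0.43 and MT-ATP8 lowest at -0.00, while MT-ND3, MT-ND5 and MT-ND6 are the members whose treatments lie furthest apart.

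The same values can be read as shares of the mitochondrial counts, which restates the differences between members without the nuclear genes. The 4 members with the smallest pooled changes, MT-ND2, MT-CO2, MT-ATP8 and MT-ATP6, made up less of the mitochondrial counts in shARID1A, without overlap between arms. MT-ND2 was 6.20% of mitochondrial counts in shARID1A and 6.84% in shNC, MT-CO2 was 8.49% in shARID1A and 9.41% in shNC, MT-ATP6 was 7.79% in shARID1A and 8.53% in shNC, and MT-ATP8 was 0.389% in shARID1A and 0.468% in shNC. MT-CO2, MT-ATP8 and MT-ATP6 follow each other on the chromosome, with a tRNA gene between MT-CO2 and MT-ATP8. MT-CYB, at 5.83% in shARID1A and 5.19% in shNC, and MT-CO1, at 33.6% in shARID1A and 32.4% in shNC, made up more. For the other 7 members the arms overlapped in this share. Among the 6 members with a stop codon completed by the tail, pooled changes ran from 0.13 for MT-ND2 to 0.43 for MT-CYB. Among the 7 others they ran from -0.00 for MT-ATP8 to 0.32 for MT-CO1. Whether the form of the stop codon bears on these changes was not tested.

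The scaling of the libraries bears on the size of all these changes. TMM factors, which correct library totals for composition, were 0.957 to 0.992 in shARID1A and 1.01 to 1.03 in shNC. Without them the median of all genes was -0.10 on the log2 scale in place of -0.02, 32.0% of called genes were higher in place of 47.1%, and the median of the members was 0.20. Then 10 members were called higher, where 44.5% of all genes were called in either direction. MT-CO2 (0.05, adjusted p = 0.107) and MT-ND2 (0.05, adjusted p = 0.0574, both by edgeR's quasi-likelihood test) were no longer called, and MT-ATP8 was at -0.07.

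Genes of the replication-dependent histone families were also measured, since many of their mRNAs end in a stem-loop in place of a tail. They were taken by symbol alone. Whether their reads came from untailed RNA was not tested, so their sum does not measure untailed RNA. The 24 genes summed to 10.3 to 12.5 CPM in shARID1A and 7.02 to 9.13 CPM in shNC, without overlap. Of the 9 that passed the filter, 3 rose and 0 fell, beside 20.3% and 22.8% of all genes, and 8 of the 24 were at 0 in every library. Their part in the mitochondrial result was not tested.

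Copies of mitochondrial genes lie in the nuclear genome, and reads of near-identical copies can be credited to either. The annotation holds 175 copies named after a mitochondrial gene, of which 39 had a count and 11 passed the filter. Together they had 0.193% to 0.215% of the mitochondrial counts in shARID1A libraries and 0.199% to 0.251% in shNC libraries. Copies of MT-CO1, MT-CO2 and MT-CO3 on chromosome 1 are listed under other symbols. Their counts are not in this total, which therefore understates the reads credited to copies. Over the aligned bases, the copies checked were 93.0% to 98.7% identical to their parent gene, with the closest match in MTCO1P12. Some cover only part of the parent, such as MTND4P24, which aligned over 397 bases of the 1378 of MT-ND4. In the pooled comparison 3 of the 11 rose, MTND6P4 (0.36, SE 0.09), MTND4P24 (0.39, SE 0.11) and MTATP6P1 (0.22, SE 0.07), and 0 fell, beside 20.3% of all genes called higher. Adding the counts of the copies to their parent genes left 12 members called.

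Few members were called for hormone treatment within an arm. E2 against DMSO gave 0 calls among the 13 in shARID1A, where 0.0235% of all genes were called, and 0 in shNC, where 0.00588% were, by edgeR's quasi-likelihood test. At an unadjusted p under 0.05 there were 1 in shARID1A and 4 in shNC, and DESeq2 called 1 in shARID1A (0.0174% of its genes) and 0 in shNC (0.00348%). The share of all genes at that unadjusted threshold is not given. Counts at it, here and below, therefore do not show whether the members stand apart from other genes. Fulvestrant added to E2, against E2 alone, gave 0 calls in shARID1A and 0 in shNC (0.00588% of all genes in each) by edgeR's quasi-likelihood test. At an unadjusted p under 0.05 there were 1 in shARID1A and 4 in shNC. DESeq2 called 0 in each (0.222% of 7666 genes in shARID1A and 0.00696% of 28723 in shNC). For MT-CO1, whose estimate was the tightest, the log2 fold change with E2 was 0.00 (SE 0.03) in shARID1A and -0.01 (SE 0.03) in shNC.

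E2 plus fulvestrant against DMSO gave 0 calls in shARID1A and 1 in shNC, where MT-ND5 fell (0% and 0.0118% of all genes called in shARID1A and shNC). In shARID1A, 1 member had an unadjusted p under 0.05 by edgeR's quasi-likelihood test, and DESeq2 called 0 (0% of its genes). MT-ND5, one of the proton-pumping subunits of complex I, was in shNC at 3109 and 3116 CPM with DMSO, 2801 and 2809 CPM with E2, and 2527 and 2736 CPM with E2 plus fulvestrant. Each step was outside the range of the step before it. The change with E2 plus fulvestrant over DMSO in shNC was -0.24 (SE 0.04, adjusted p = 0.0178 by edgeR's quasi-likelihood test). Without replicate 1 of shNC with E2 plus fulvestrant it was -0.20 and no longer called (adjusted p = 0.446). In shARID1A, MT-ND5 was at 3553 and 3576 CPM with DMSO, 3460 and 3543 CPM with E2, and 3532 and 3499 CPM with E2 plus fulvestrant, and the change with E2 plus fulvestrant was -0.02 (SE 0.04).

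MT-ND6, a small membrane subunit of complex I, had the same order of means in shNC. Its counts may include RNA of the other strand, next to the end of MT-ND5. MT-ND6 and MT-ND5 may therefore not be separate observations. MT-ND6 was at 713 and 723 CPM with DMSO, 653 and 633 CPM with E2, and 566 and 638 CPM with E2 plus fulvestrant. With E2 plus fulvestrant over DMSO the value was -0.25 (SE 0.05), as it was for MT-ND3 (SE 0.06), and MT-ND1 was at -0.18 (SE 0.04), none of them called by edgeR's quasi-likelihood test (adjusted p = 0.12, 0.21 and 0.215 for MT-ND6, MT-ND3 and MT-ND1). DESeq2 called all 4 lower, with 0.927% called of the 2266 genes it gave an adjusted p. In shARID1A the MT-ND6 levels were 790.1 and 802 CPM with DMSO, 804 and 791 CPM with E2, and 833 and 822 CPM with E2 plus fulvestrant, so the last 2 libraries were the highest of their arm.

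**Figure D4:**
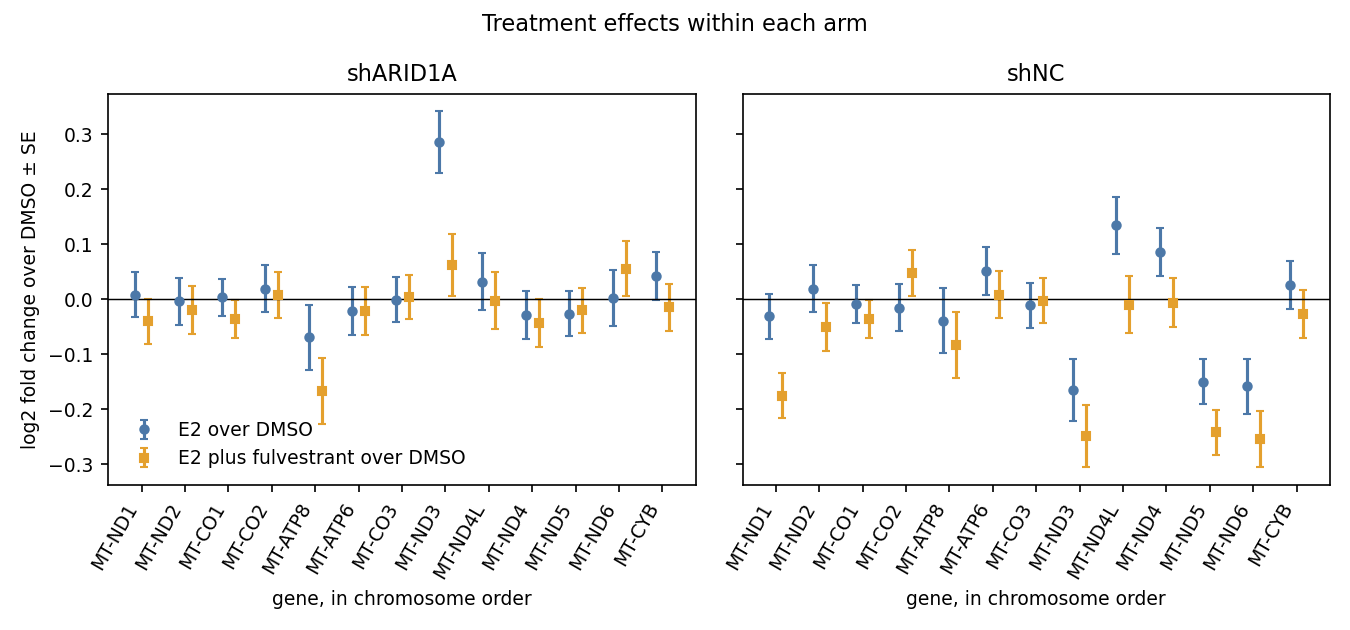
Log2 fold change over DMSO ± SE of each member in chromosome order, with blue circles for E2 and orange squares for E2 plus fulvestrant, shARID1A in the left panel and shNC in the right. Most values in shARID1A lie near 0 with MT-ND3 at 0.29 after E2, and in shNC MT-ND1, MT-ND3, MT-ND5 and MT-ND6 lie lowest after E2 plus fulvestrant.

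MT-ND3, which lies at the junction of the arms of complex I, was the member whose response to E2 differed between the arms. In shARID1A it was at 438 and 453 CPM with DMSO, 557 and 531 CPM with E2, and 479 and 452 CPM with E2 plus fulvestrant. In shNC it was at 433 and 462 CPM with DMSO, 414 and 384 CPM with E2, and 358 and 395 CPM with E2 plus fulvestrant. The shARID1A libraries with E2 were thus the highest of all 12, while the shNC libraries with E2 were below those with DMSO. The log2 change with E2 was 0.29 in shARID1A (SE 0.06, adjusted p = 0.0554) and -0.16 in shNC (SE 0.06, adjusted p = 1.0), neither called by edgeR's quasi-likelihood test. The change in shARID1A was near the threshold and was called by DESeq2 (adjusted p = 0.00856) and by edgeR's quasi-likelihood test with no filter (adjusted p = 0.000213, 0.129% of all genes called), with only the compared groups in the fit (0.000914, 0.134%) and with a replicate block (0.0406, 0.0294%). The difference of these 2 changes was 0.45 (SE 0.08, adjusted p = 0.0112 by the same test), 1 call among the 13 where 0.0294% of all genes, 5 of 17020, were called. The other 4 were RP11-543P15.1, FTH1P20, GNG5P2 and RPL37.

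The MT-ND3 call depended on single libraries. It was lost without replicate 2 of shNC with DMSO or replicate 2 of shNC with E2. It was also lost without replicate 1 or 2 of shARID1A with DMSO, or replicate 1 of shARID1A with E2. Over all 8 fits that left out a library of the groups compared, whether the call was kept or lost, the difference stayed between 0.39 and 0.51. The same levels set the MT-ND3 knockdown values, which were -0.01 with DMSO, 0.45 with E2 and 0.31 with E2 plus fulvestrant. These comparisons share libraries with the treatment comparisons and add no separate evidence. For the difference of the fulvestrant effect, 0 members were called by edgeR's quasi-likelihood test or DESeq2 (0.0118% of all genes by edgeR and 0.00348% by DESeq2), and 1 had an unadjusted p under 0.05.

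**Figure D5:**
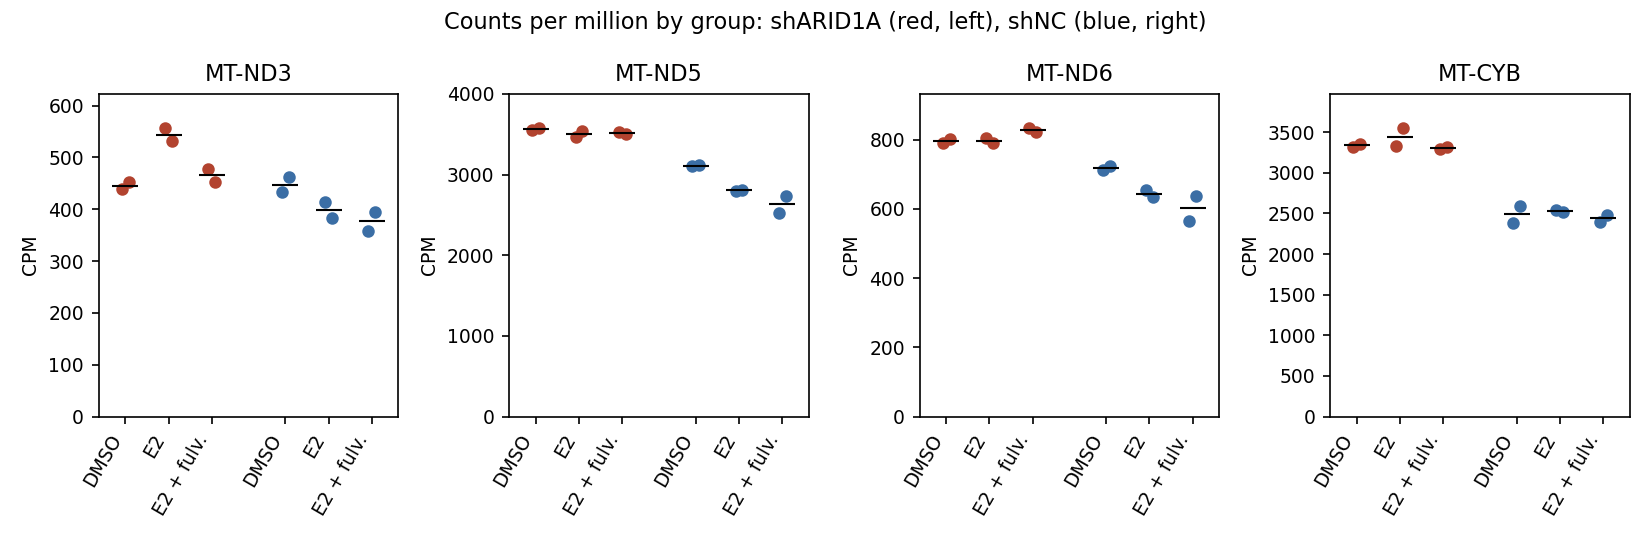
CPM of MT-ND3, MT-ND5, MT-ND6 and MT-CYB by treatment, with a point per library and a line at each group mean, shARID1A in red on the left and shNC in blue on the right of each panel. MT-ND3 reaches 531 and 557 CPM in shARID1A with E2, and MT-ND5 steps down over the treatments in shNC. The MT-ND6 means also fall in shNC, where its libraries with E2 and with E2 plus fulvestrant overlap. MT-CYB differs by arm and little by treatment.

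The nuclear genes for subunits of the same complexes were set beside the mitochondrial members. In the pooled comparison of shARID1A with shNC, 23 of 32 tested complex I genes rose and 0 fell, with a median log2 fold change of 0.22. Examples are NDUFS6 (0.44, SE 0.04), NDUFB7 (0.41, SE 0.05) and NDUFV1 (0.30, SE 0.03), a subunit of the NADH-oxidising module. Of the complex III genes 6 of 7 rose and 0 fell, among them UQCRC2 (0.34, SE 0.04), a core subunit, and CYC1 (0.23, SE 0.03), cytochrome c1, and the median was 0.21. Of the complex IV genes 8 of 11 rose and 0 fell, with NDUFA4 (0.33, SE 0.04) and COX5B (0.28, SE 0.04) as examples and a median of 0.20. Of the complex V genes 12 of 15 rose and 0 fell, with ATP5G3 (0.40, SE 0.04), a gene for the rotating c ring, and a median of 0.22. All of these shares stand beside 20.3% of all genes called higher.

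Complex II, which has no mitochondrially encoded subunit, had 2 of 4 genes higher and 0 lower, SDHA (0.14, SE 0.03) and SDHC (0.15, SE 0.05), with a median of 0.12. In complex V, the complex whose mitochondrial members changed least, the nuclear median of 0.22 compares with 0.14 for MT-ATP6 and -0.00 for MT-ATP8. In complex III, MT-CYB at 0.43 was above the nuclear median of 0.21.

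Genes that act on mitochondrial DNA and RNA were called in both directions, as were all genes tested, of which 20.3% were called higher and 22.8% lower. Of 20 genes for replication and transcription of mitochondrial DNA, 2 rose and 5 fell, with a median of -0.00, and the share that fell is near that of all genes. POLG, the catalytic subunit of the mitochondrial DNA polymerase, rose by 0.37 (SE 0.03) and SSBP1, the mitochondrial single-strand DNA-binding protein, by 0.22 (SE 0.04). TOP1MT, a mitochondrial topoisomerase, was at -0.28 (SE 0.05) and PRIMPOL, a primase and polymerase, at -0.52 (SE 0.10), and both fell. Of 25 genes for processing and stability of mitochondrial RNA, 7 rose and 3 fell, with a median of 0.03, and the share that rose is near that of all genes.

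Among those that rose were TBRG4 (0.23, SE 0.03) and FASTK (0.22, SE 0.04), both of the FASTK family of mitochondrial RNA-binding proteins. MRM1 (0.46, SE 0.08), which methylates mitochondrial rRNA, and HSD17B10 (0.18, SE 0.04), a subunit of mitochondrial RNase P, also rose. The 3 that fell were PNPT1 (-0.22, SE 0.05), LRPPRC (-0.20, SE 0.05) and TRNT1 (-0.19, SE 0.06). Of 67 tested genes for proteins of the mitochondrial ribosome, which translates the 13 mRNAs, 30 rose and 4 fell, with MRPL17 (0.41, SE 0.04) and MRPL49 (0.36, SE 0.04) as examples and a median of 0.10. Of 16 regulators of mitochondrial biogenesis, 3 rose and 4 fell, with a median of 0.01, both near the 20.3% and 22.8% of all genes called higher and lower, so the count sets them apart from other genes in neither direction. SIRT3, a mitochondrial deacetylase, rose by 0.27 (SE 0.07), whereas CREB1 (-0.44, SE 0.06), PPARGC1B (-0.42, SE 0.10), a coactivator of the PGC-1 family, and PRKAA1 (-0.23, SE 0.06), a catalytic subunit of AMP-activated kinase, fell.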

How the data were processed

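The authors deposited raw counts of reads per gene, whole numbers with no normalization, for 12 libraries. Per the submitters' processing notes, which give no order, Trim Galore, cutadapt, FastQC and Subread 2.0.0 were used with the hg19 build. Per the file headers, featureCounts 2.0.0 counted exons by gene with no option for strand, pairs, multiple alignments or overlapping genes. The mitochondrial sequence in the index is not given in the sources used here. The gene coordinates in the files equal those of the GENCODE annotation of GRCh38, from which the sequences were read.

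All 12 libraries were fitted together in edgeR 4.0.16 (R 4.3.3) with a mean per group, TMM factors and filterByExpr by group, which kept 17020 of 45320 genes. The 12 contrasts were tested with the quasi-likelihood F-test and Benjamini-Hochberg adjustment over all genes tested, with calls at 0.05. CPM use TMM-scaled totals. SE is the log2 fold change over the root of F. The steps were tested on simulated data with 200 changed genes. DESeq2 1.42.0 (an adjusted p it gives as missing was kept missing), other scalings, no filter, smaller fits, a replicate block, copies added to their parents (one set of them, on chromosome 1, chosen after seeing the data) and leaving out each library were tried. Shares called by DESeq2 are of the genes it gave an adjusted p, which numbered 2266 to 28723 by contrast. Copies were aligned with Biopython 1.88.

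The members and gene lists were chosen with earlier results of these data known. All members are named, and of each other list up to 4 genes with the smallest adjusted p in the pooled comparison. The 3 genes for processing and stability of mitochondrial RNA that fell are named as well. Marker genes are named from their fixed list, of which some results are not reported here.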

Additional observations from a re-analysis of the deposited data

Results flagged for a closer look

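Outlying libraries were looked for in the CPM of each of the 13 members and in the mitochondrial share, within the 6 libraries of an arm, which gave 28 sets of 6. Chance flags about 1 in 20 such sets. Both flags fell on replicate 2 of shARID1A with E2, the deepest library with 38657162 counts. Its MT-CYB level was 3550.3 CPM, while the other 5 shARID1A libraries had 3295 to 3360.3 CPM. Its MT-ND4L level was 1198 CPM, while the others had 1147 to 1156 CPM. Without this library the pooled MT-CYB log2 fold change was 0.42, and MT-CYB was called without any single library.

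The MT-ND3 response to E2 differed between the arms by 0.45 on the log2 scale (SE 0.08, adjusted p = 0.0112 by edgeR's quasi-likelihood test of the difference). Both shARID1A libraries with E2 were above both with DMSO, and both shNC libraries with E2 were below both with DMSO. The call was lost when any of 5 libraries was left out.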

How the results depend on the processing

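In the pooled comparison 12 members were called in every fit that left out a library, and no value changed sign past a threshold under any alternative. Called members when a library was left out numbered 7 to 10 with DMSO (11 with all libraries, 7 without replicate 1 of shNC or replicate 2 of shARID1A), 8 to 10 with E2 and 9 to 11 with E2 plus fulvestrant, 0 to 2 for E2 plus fulvestrant in shNC, and 0 to 1 for the difference of the E2 effect. For the knockdown under each treatment, fewer of all genes tested were also called in some of these fits. A drop in the member count is therefore not particular to the members. The difference in share was 0.679 to 0.751 points when a library was left out. Where a group had 1 library left, it was assumed to vary like the others. Without scaling factors 7 members were called for the knockdown with DMSO, where 19.5% of all genes were called in either direction. For E2 in shARID1A, 1 member, MT-ND3, was called with DESeq2 (adjusted p = 0.00856), with no filter (0.000213), with only the compared groups (0.000914) and with the replicate block (0.0406), all higher, where 0.0174%, 0.129%, 0.134% and 0.0294% of all genes were called. With no filter 1 was called lower for fulvestrant on E2 in shARID1A (0.143% of all genes). For E2 plus fulvestrant in shNC, 4 were called lower with DESeq2 and 4 with no filter (0.174% of all genes), against 1. The labels do not say that a replicate number marks a shared culture or day. Correlations of the replicate differences were 0.16 to 0.28 among the 3 shNC groups, 0.12 to 0.24 between shARID1A with E2 plus fulvestrant and the shNC groups, and -0.22 to 0.12 for the other pairs, so the numbers were not taken to pair all samples. The replicate block kept 12 called in the pooled comparison and gave 12 for the knockdown with E2. With that block, 43.5% and 27.8% of all genes were called in either direction. Leaving out the mitochondrial rRNA genes was not run, since the files list none. The lowest count of a member in a library was 6163.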
